A study of Homo sapiens with 4 samples.

Results

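The mitochondrial respiratory chain and ATP synthase are built from 5 protein complexes, and 77 of the 18417 genes measured here encode, or by symbol belong to, their nuclear-encoded subunits. Members were chosen by gene symbol alone: the NDUFA, NDUFB, NDUFC, NDUFS and NDUFV genes of complex I, the SDH genes of complex II, the UQCR genes and CYC1 of complex III, the numbered COX genes of complex IV, and the ATP5 genes of complex V. This gave 33 genes for complex I, 3 for complex II, 9 for complex III, 14 for complex IV and 18 for complex V. The count includes the pseudogenes UQCRBP1 and ATP5F1EP2 and the gene ATP5MGL, which resembles ATP5MG. SDHB, UQCRFS1 and the genes on mitochondrial DNA were not analysed here, and NDUFC2, NDUFS5, ATP5F1E and UQCRHL lay only on array features shared by several genes.

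Total RNA was measured on whole-transcript arrays and came from HCE, a cell line labelled undifferentiated, in a study of how KLF7 and KLF4 act in the corneal epithelium. The siKLF7 group comprised 2 arrays from cells given a pooled siRNA against KLF7, a zinc finger transcription factor, and the scramble control group comprised 2 arrays from cells given a pooled control siRNA. Both groups carried siRNA at 20 nM in wells seeded with 100000 cells, in the same growth medium, and both were harvested after 48 hours. Each group had n = 2, and the labels do not say whether its arrays stand for separate cultures, so the spread between these samples may be technical. The limma p-values draw on that spread and on a prior over all genes. In the fits against a single control, which have 1 residual degree of freedom, they rest mostly on the prior.

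In oxidative phosphorylation, complexes I and II pass electrons from NADH and succinate to ubiquinone, complex III passes them on to cytochrome c, and complex IV gives them to oxygen. Complexes I, III and IV pump protons across the inner membrane, and the ATP synthase, complex V, uses the returning protons to make ATP. Most subunits are encoded in the nucleus, where the factors NRF1 and GABP are known to bind the promoters of many of them, while KLF proteins bind GC-rich and CACCC-like sites. Some subunits of complex IV exist as tissue-restricted isoforms, made mainly in heart and skeletal muscle or in testis, beside a partner made in most cells.

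The array signal is a linear measure of brightness. KLF7 had signals of 1492 and 1122 in the siKLF7 arrays, against 4649 and 2911 in scramble control arrays 1 and 2. Every siKLF7 value lay below every control value. The log2 difference was -1.50 (SE 0.28, limma adjusted p = 0.639) with all 4 arrays, and by exact permutation of the arrays the two-sided p was 0.333, which is as low as 2 against 2 can reach. All log2 values here are of signal + 16 and are siKLF7 minus scramble control, so differences of dim genes are understated. Against scramble control 2 alone KLF7 fell by 1.16 (SE 0.13, limma adjusted p = 1.2e-09).

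The scramble control arrays were unlike each other. Scramble control 1 correlated with the other arrays across genes at 0.934 to 0.938, while the other 3 correlated among themselves at 0.990 to 0.994, and by 2-fold or more 551 genes were lower and 389 higher in scramble control 1 than in the mean of the rest. Of the 9 epithelial markers measured, the corneal keratin gene KRT3 was at a signal of 0.01 in scramble control 1 and at 1440 to 2461 in the other arrays, while the basal keratin gene KRT5 lay between 11828 and 13575 in all 4. The summed epithelial signal was 38803 and 41517 in the siKLF7 arrays, against 25924 and 35058 in scramble controls 1 and 2, and the summed signal of 9 fibroblast markers was 960.3 and 997 in the siKLF7 arrays, against 2347 and 987 in scramble controls 1 and 2. Of these markers, POSTN stood at 77.4 and 44.1 in the siKLF7 arrays, against 678 and 25.4 in scramble controls 1 and 2, and THY1 at 100.5 and 109 in the siKLF7 arrays, against 752 and 111 in scramble controls 1 and 2. The other 7 fibroblast markers summed to 782 and 844 in the siKLF7 arrays, against 916 and 850.4 in scramble controls 1 and 2, and LUM was lowest in scramble control 1, at 25.1. Their part in the results below was not tested, and in bulk RNA fewer cells of a type and less RNA per cell cannot be told apart. Counts are therefore given with 4 arrays and against each control alone. The fits against a single control share the siKLF7 arrays, and they take their spread from that pair and from a prior over all genes.

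Over the whole family, levels in siKLF7 cells were near those of scramble control 2 and mostly above those of scramble control 1. With 4 arrays 0 of 77 members passed limma at an adjusted p of 0.05, and across all genes 0% passed. NDUFV2 and UQCRH were the 2 members with an unadjusted p under 0.05, where 5.80% of all genes had one. The median difference of the members was 0.19, against -0.05 for all genes. The difference was above 0 for 63 of 77 members, 81.8%, against 41.8% of all genes.

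Against scramble control 2 alone, 3 members fell and 0 rose in limma, where 1.57% of all genes passed, 0.690% falling and 0.885% rising. The members that fell, 3.90% of the family, were NDUFV2 of complex I and ATP5MC1 and ATP5PB of complex V. An unadjusted p under 0.05 was found for 6 members, where 11.3% of all genes had one. The member median was 0.05, against -0.04 for all genes, and the difference was above 0 for 49 members, 63.6%, where 42.2% of all genes were. Against scramble control 1 alone, 41 members rose and 5 fell, 59.7% of the family, where 26.8% of all genes passed, 13.4% in each direction, and the member median was 0.36 against -0.05. The difference was above 0 for 65 members, where 43.1% of all genes were.

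Members differed more between the control arrays than between the siKLF7 arrays. Scramble control 1 was the lowest of the 4 arrays for 58 of 77 members, 75.3%, against 31.4% of all genes. It lay below scramble control 2 by a median of 0.30 over the members, and their absolute difference had a median of 0.33 and reached 1.05 for NDUFA6. The siKLF7 arrays differed from each other by a median of 0.06, with an absolute median of 0.10 and a maximum of 0.46, for COX8C. Against scramble control 2 the member median was 0.09 for siKLF7 array 1 and 0.01 for siKLF7 array 2, and against scramble control 1 it was 0.38 and 0.28. The groups did not overlap for 37 members, 48.1%, where 45.2% of all genes did not. Of these, 30 members lay above both controls, where 16.3% of all genes did, and 7 lay below both, where 28.9% did.

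**Figure D1:**
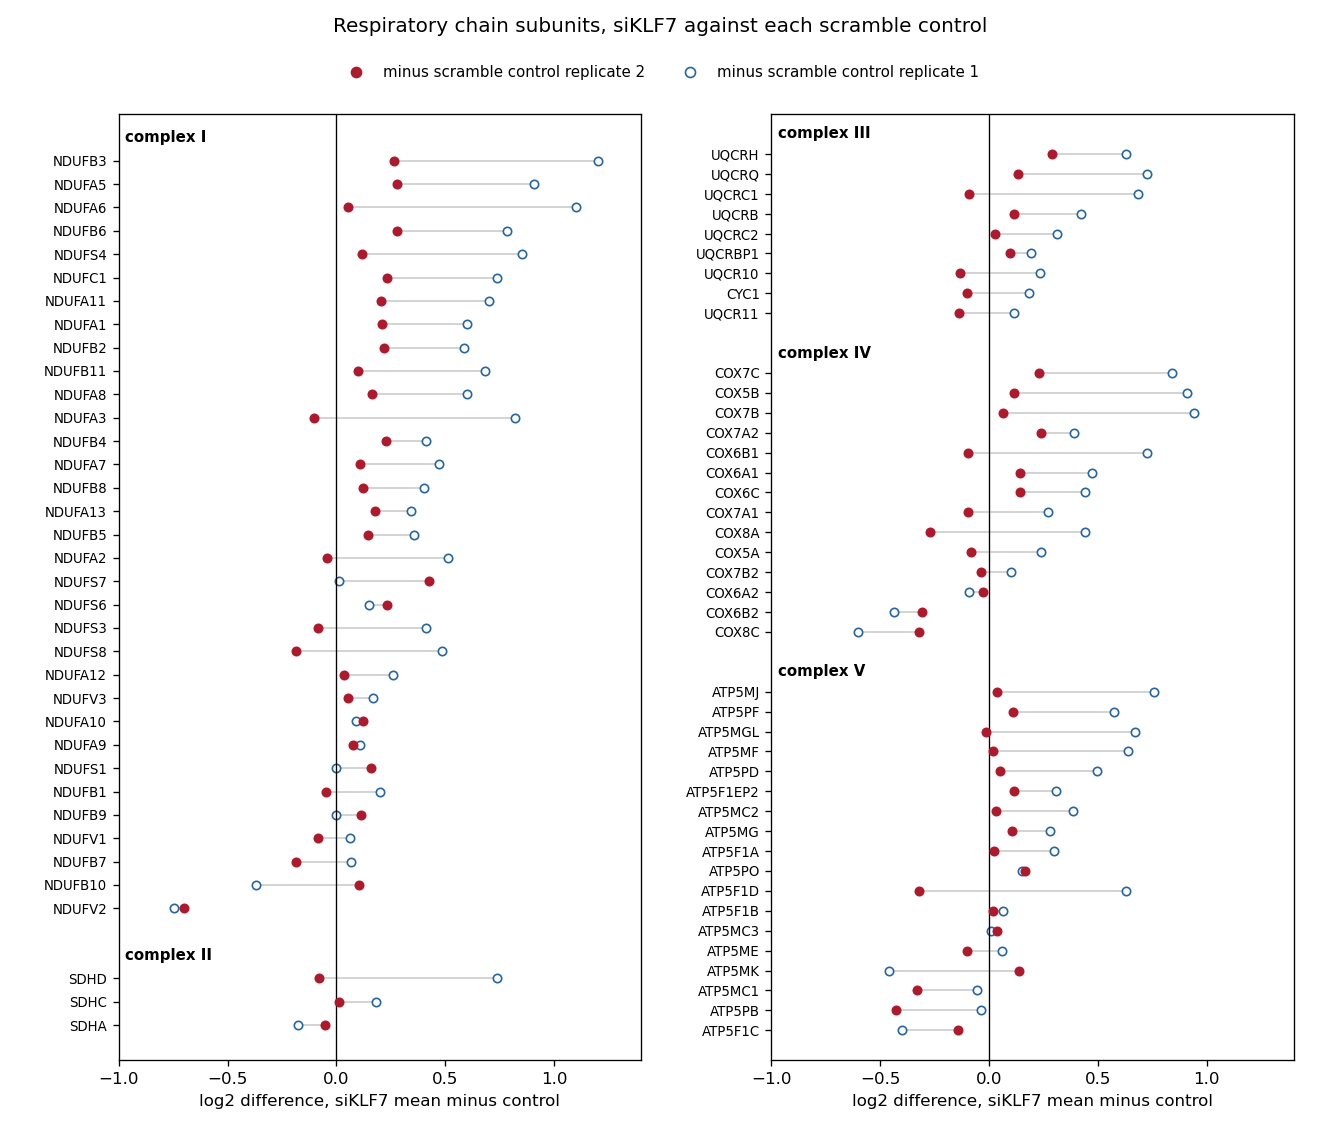
Log2 difference of each of the 77 members by complex, siKLF7 mean minus scramble control 2 (filled) and siKLF7 mean minus scramble control 1 (open), joined by a line. Most filled points lie near 0, with a median of 0.05, most open points lie to the right with a median of 0.36, and NDUFV2 lies far to the left with both controls, at -0.70 and -0.75.

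**Figure D2:**
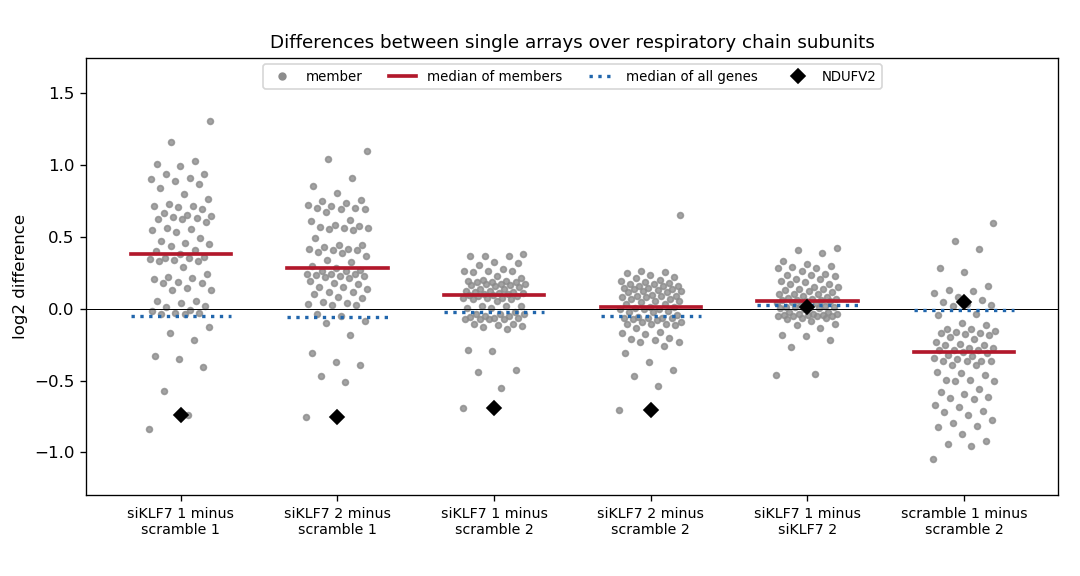
Log2 differences of the members for each pair of the 4 arrays, with the member median (red line), the median of all genes (blue dotted line) and NDUFV2 (black diamond). The member median is 0.38 and 0.28 for the siKLF7 arrays minus scramble control 1, 0.09 and 0.01 for the siKLF7 arrays minus scramble control 2, and -0.30 for scramble control 1 minus 2.

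NDUFV2 encodes a core subunit of complex I that carries an iron-sulphur cluster in the part of the enzyme that oxidises NADH. Its signals were 880.5 and 873 in the siKLF7 arrays, against 1482 and 1434 in scramble controls 1 and 2. Each siKLF7 array lay below each control, and the arrays of a group lay close together, with means of 877 ± 5.28 in siKLF7 and 1458 ± 33.8 in control arrays (SD, n = 2 each). The log2 difference was -0.72 with 4 arrays (SE 0.13), a level 60.6% of the control level, with a limma unadjusted p of 0.00288 and an adjusted p of 0.639 that did not pass. Against scramble control 2 NDUFV2 fell by 0.70 (SE 0.15, limma adjusted p = 0.00135), and against scramble control 1 by 0.75 (SE 0.15, limma adjusted p = 2.0e-05). By its p in the 4-array fit it ranked 23 among the 18417 genes. A further probe set for NDUFV2, which lists the same transcripts and is no independent measure, had signals of 843 and 829.9 in the siKLF7 arrays and 1428 and 1352 in scramble controls 1 and 2. In an alternative fit over all 33297 features in place of genes, with scramble control 2, 0 features passed limma (1677 at an unadjusted p under 0.05) and the adjusted p of NDUFV2 was 0.845.

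The other 5 core subunits of complex I measured did not pass with 4 arrays, where 0% of all genes passed. NDUFV1, which binds NADH and sits beside NDUFV2, had signals of 1525 and 1240.0 in the siKLF7 arrays, against 1318 and 1457 in scramble controls 1 and 2, and its log2 difference was -0.01 with 4 arrays, -0.08 against scramble control 2 and 0.06 against scramble control 1. NDUFS1, the remaining iron-sulphur subunit of that module, stood at 1030.2 and 1068 in siKLF7 against 1049 and 937 in control arrays, a difference of 0.08 with 4 arrays and 0.16 against scramble control 2. In both genes the groups overlapped and no fit passed. NDUFS7, a subunit near the ubiquinone site, stood at 578 and 798 in siKLF7 and 673 and 501 in control arrays. Its difference of 0.43 against scramble control 2 (limma adjusted p = 0.242) did not pass, and it was 0.01 against scramble control 1. NDUFS3, also of the core, stood at 1417 and 1369.8 in siKLF7 against 1044 and 1477 in control arrays, and NDUFS8 at 1035 and 872 in siKLF7 against 674 and 1083 in control arrays. They differed by 0.16 and 0.15 with 4 arrays, by -0.08 and -0.19 against scramble control 2, and by 0.41 and 0.49 against scramble control 1, where both rose (limma adjusted p = 0.0185 and 0.011). Of the 6 core subunits measured, NDUFV2 was the one with both siKLF7 arrays below both controls, 16.7%, where 28.9% of all genes lay.

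**Figure D3:**
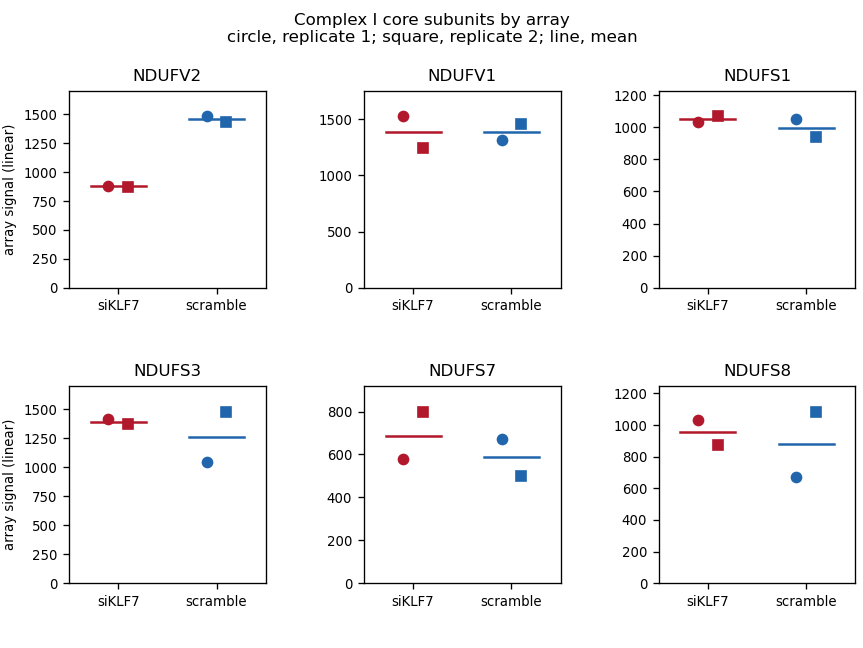
Signal on a linear scale in each array for the 6 complex I core subunits measured, siKLF7 left and scramble control right, with replicate 1 as a circle, replicate 2 as a square and the mean as a line. In the NDUFV2 panel the siKLF7 points, at 880.5 and 873, lie below the control points at 1482 and 1434, and in the other panels the groups overlap.

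The bases before the start of the 3 genes that fell against scramble control 2 are shown, with those of NDUFV1 and NDUFA11. NDUFV1 is the neighbour of NDUFV2 in the enzyme. NDUFA11 was singled out after its values were seen. Among members with an NRF1 motif it had the highest log2 difference with every array used, 0.45. Its window also holds a CACCC, but other members, such as SDHD and NDUFA8, had both motifs in the longer windows described below. The bases shown are the 250 before each start in RefSeq on GRCh38.p14, read 5′ to 3′ on the gene's strand, and capitals mark motif matches. The motifs searched, on both strands, were CACCC, the GC box CCGCCC, the ETS core CGGAAG that GABP can bind, and the NRF1 motif. The windows lie at chr18:9102449-9102698 on the plus strand for NDUFV2, chr17:48892537-48892786 on the plus strand for ATP5MC1, chr1:111449214-111449463 on the plus strand for ATP5PB, chr11:67606686-67606935 on the plus strand for NDUFV1 and chr19:5903791-5904040 on the minus strand for NDUFA11.
NDUFV2: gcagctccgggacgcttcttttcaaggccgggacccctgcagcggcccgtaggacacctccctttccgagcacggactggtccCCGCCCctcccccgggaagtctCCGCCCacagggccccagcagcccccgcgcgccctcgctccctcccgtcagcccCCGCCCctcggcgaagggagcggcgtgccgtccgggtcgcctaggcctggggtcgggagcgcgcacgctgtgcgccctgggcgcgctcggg
ATP5MC1: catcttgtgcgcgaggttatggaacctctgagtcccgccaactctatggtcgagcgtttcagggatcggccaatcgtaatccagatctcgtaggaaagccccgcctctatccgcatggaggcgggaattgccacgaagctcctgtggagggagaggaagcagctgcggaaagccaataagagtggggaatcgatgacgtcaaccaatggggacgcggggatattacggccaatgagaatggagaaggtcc
ATP5PB: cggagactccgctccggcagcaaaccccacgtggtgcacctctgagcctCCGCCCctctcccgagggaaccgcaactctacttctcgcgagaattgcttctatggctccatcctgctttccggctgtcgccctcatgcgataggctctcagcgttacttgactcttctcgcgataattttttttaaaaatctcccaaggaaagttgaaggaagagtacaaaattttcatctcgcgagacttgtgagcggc
NDUFV1: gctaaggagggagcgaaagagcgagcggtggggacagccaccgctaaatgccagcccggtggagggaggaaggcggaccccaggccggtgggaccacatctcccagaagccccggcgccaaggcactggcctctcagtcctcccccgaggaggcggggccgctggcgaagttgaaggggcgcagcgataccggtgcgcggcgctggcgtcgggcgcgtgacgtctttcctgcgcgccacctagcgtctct
NDUFA11: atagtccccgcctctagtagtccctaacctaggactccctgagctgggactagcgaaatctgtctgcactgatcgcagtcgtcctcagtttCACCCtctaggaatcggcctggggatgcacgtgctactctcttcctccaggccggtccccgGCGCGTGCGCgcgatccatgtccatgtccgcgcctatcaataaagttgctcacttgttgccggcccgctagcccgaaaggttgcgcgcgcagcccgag

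The NDUFV2 bases hold 3 matches to CCGCCC, those of ATP5PB hold 1, and those of ATP5MC1 and NDUFV1 hold 0 of the 4 motifs. NDUFA11 holds 1 CACCC and 1 NRF1 match. RefSeq windows of 300 bases, 250 before and 50 after the start, were available for 63 members as 75 windows, since some genes have several starts. CACCC occurred in 56.0% of the member windows and in 59.9% of all 35116 windows, and CCGCCC in 58.7% and 45.0%. CGGAAG occurred in 37.3% of member windows and 19.5% of all windows, and the NRF1 motif in 21.3% and 5.8%. Matches of CCGCCC overlapped those of CACCC in 3 member windows and those of CGGAAG in 3. These matches describe letters in the windows, and no binding was measured.

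Apart from NDUFV2, complex I held 18 members above both controls, 56.25%, and 0 below both, where 16.3% and 28.9% of all genes lay. The 32 members other than NDUFV2 ranged from -0.13 to 0.73 with 4 arrays and from -0.19 to 0.43 against scramble control 2. With 4 arrays 0 of these 32 passed, where 0% of all genes did. Against scramble control 1 the difference was above 0 for 29 of the 32, 90.6%, where 43.1% of all genes were. The 12 NDUFA genes had median differences of 0.32 with 4 arrays, 0.12 against scramble control 2 and 0.56 against scramble control 1, and the 11 NDUFB genes had medians of 0.26, 0.12 and 0.40.

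NDUFA5, an accessory subunit of the arm that extends into the matrix, had signals of 525 and 453 in the siKLF7 arrays, against 253 and 399 in scramble controls 1 and 2. Its log2 difference was 0.59 with 4 arrays, 0.28 against scramble control 2 and 0.91 against scramble control 1. NDUFB6, an accessory subunit of the membrane arm, stood at 462 and 409 in siKLF7 against 246 and 355 in control arrays, a difference of 0.53, 0.28 and 0.78 in the same order of fits. In both genes all siKLF7 values lay above both controls, and scramble control 1 was the lowest array. NDUFB4, also of the membrane arm, had 2018 and 2011 in siKLF7 and 1512 and 1718 in control arrays, differing by 0.32 with 4 arrays, 0.23 against scramble control 2 and 0.41 against scramble control 1. NDUFA11, a membrane-arm subunit, had 526 and 551 in siKLF7 against 324 and 465 in control arrays, differing by 0.45 with 4 arrays, 0.20 against scramble control 2 and 0.70 against scramble control 1. NDUFB3 had the highest 4-array difference of the family, 0.73, from signals of 767 and 661 in siKLF7 against 299.9 and 590.4 in control arrays, and it differed by 0.26 against scramble control 2 and 1.20 against scramble control 1. None of these 5 genes passed with 4 arrays, where 0% of all genes did. Their differences from scramble control 1 lay between 0.41 for NDUFB4 and 1.20 for NDUFB3. The 5 were named for low p-values or after their values were seen, so their shared direction is no result about complex I.

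NDUFS4 and NDUFS6, accessory subunits of the NADH-oxidising module that also holds NDUFV2, differed with the opposite sign. NDUFS4 stood at 1372 and 1124 in siKLF7 and 679 and 1143 in control arrays, differing by 0.49 with 4 arrays, 0.12 against scramble control 2 and 0.86 against scramble control 1. NDUFS6 stood at 445 and 424 in siKLF7 against 389.9 and 368 in control arrays, differing by 0.19 with 4 arrays, 0.23 against scramble control 2 and 0.15 against scramble control 1. NDUFV3, a small subunit of the same module, stood at 1906 and 1856 in siKLF7 against 1672 and 1813 in control arrays, differing by 0.11 with 4 arrays, 0.05 against scramble control 2 and 0.17 against scramble control 1. None of the 3 passed with 4 arrays, where 0% of all genes did. A further, dim probe set of NDUFS4 had 55.5 and 33.9 in siKLF7 against 39.3 and 42.6 in control arrays. It differed by 0.07 with 4 arrays, 0.03 against scramble control 2 and 0.11 against scramble control 1. Besides NDUFV2, the lowest members of complex I with 4 arrays were NDUFB10 at -0.13 and NDUFB7 at -0.06, both accessory subunits of the membrane arm whose groups overlapped.

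In complex II, which is also an enzyme of the TCA cycle, 0 of 3 members passed with 4 arrays, where 0% of all genes passed. SDHA, the subunit that oxidises succinate, had signals of 1523 and 1508 in the siKLF7 arrays, against 1717 and 1574 in scramble controls 1 and 2, a log2 difference of -0.12 with 4 arrays, -0.05 against scramble control 2 and -0.18 against scramble control 1. Both siKLF7 values lay below both controls, but no fit passed, and SDHA has near-identical pseudogene copies that an array may not separate. SDHC, a membrane anchor, stood at 4284 and 4602 in siKLF7 against 3913 and 4398 in control arrays. It differed by 0.10 with 4 arrays, 0.01 against scramble control 2 and 0.18 against scramble control 1. A further, dimmer probe set of SDHC stood at 599 and 575 in siKLF7 against 536 and 529 in control arrays. There both siKLF7 values lay above both controls, and the differences were 0.14, 0.14 and 0.13 in the same order. SDHD, the remaining anchor, stood at 2252 and 2157 in siKLF7 against 1317 and 2333 in control arrays, so that scramble control 1 lay apart from the other 3 arrays. SDHD differed by 0.33 with 4 arrays, -0.08 against scramble control 2 and 0.74 against scramble control 1. A further probe set of SDHD differed by 0.33, 0.09 and 0.57 in the same order.

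In complex III 0 of 9 members passed with 4 arrays, where 0% of all genes passed. Against scramble control 1 the difference was above 0 for all 9, where 43.1% of all genes were. UQCRH, the hinge protein that helps cytochrome c1 meet cytochrome c, had signals of 310.0 and 277 in the siKLF7 arrays, against 184 and 237 in scramble controls 1 and 2. Its log2 difference was 0.46 with 4 arrays (SE 0.17, limma unadjusted p = 0.0436, adjusted p = 0.639), 0.29 against scramble control 2 and 0.63 against scramble control 1. UQCRQ, a small subunit that binds near cytochrome b, stood at 1605 and 1592 in siKLF7 and 959 and 1456 in control arrays, differing by 0.43 with 4 arrays, 0.13 against scramble control 2 and 0.73 against scramble control 1. These were the 2 members of complex III, 22.2%, with both siKLF7 arrays above both controls, where 16.3% of all genes lay. UQCRH has the near-identical copy UQCRHL, so its values are uncertain between them.

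UQCRB, another small subunit, stood at 192 and 140.1 in siKLF7 and 118 and 150.4 in control arrays, with a difference between the siKLF7 arrays of 0.41, larger than its 4-array difference of 0.27, and it differed by 0.11 against scramble control 2 and 0.42 against scramble control 1. UQCRC2, a core protein on the matrix side, stood at 4022 and 3859 in siKLF7 against 3168 and 3865 in control arrays, differing by 0.17 with 4 arrays, 0.03 against scramble control 2 and 0.31 against scramble control 1. Its partner UQCRC1 stood at 1485 and 1267 in siKLF7 against 846 and 1462 in control arrays, differing by 0.30 with 4 arrays, -0.09 against scramble control 2 and 0.69 against scramble control 1. UQCR10, a small subunit beside cytochrome c1, stood at 2869 and 2505 in siKLF7 against 2277 and 2941 in control arrays, and its sign depended on the control, 0.05 with 4 arrays, -0.13 against scramble control 2 and 0.23 against scramble control 1. CYC1, cytochrome c1 itself, stood at 1868 and 1789.5 in siKLF7 against 1606 and 1965 in control arrays and differed by 0.04 with 4 arrays, -0.10 against scramble control 2 and 0.19 against scramble control 1. The groups overlapped for all 5 of these genes.

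In complex IV 0 of 14 members passed with 4 arrays, where 0% of all genes passed. The 9 widely expressed members had median differences of 0.31 with 4 arrays, 0.11 against scramble control 2 and 0.47 against scramble control 1. In the last comparison the difference was above 0 for all 9, where 43.1% of all genes were. COX7C had signals of 2442 and 2144 in the siKLF7 arrays, against 1269 and 1947 in scramble controls 1 and 2, a log2 difference of 0.54 with 4 arrays, 0.23 against scramble control 2 and 0.84 against scramble control 1. COX5B stood at 5315 and 5319 in siKLF7 against 2823 and 4915 in control arrays, differing by 0.51 with 4 arrays, 0.11 against scramble control 2 and 0.91 against scramble control 1. In both of these genes for small nuclear-encoded subunits, scramble control 1 lay well below the other 3 arrays.

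The 5 tissue-restricted members had median differences of -0.06 with 4 arrays, -0.10 against scramble control 2 and -0.09 against scramble control 1. In the last comparison the difference was above 0 for 2 of 5, 40%, where 43.1% of all genes were. COX6B2, known from testis, had signals of 188 and 229 in the siKLF7 arrays, against 286 and 260.2 in scramble controls 1 and 2, a difference of -0.37 with 4 arrays, -0.31 against scramble control 2 and -0.44 against scramble control 1. Its widely expressed partner COX6B1 stood at 3488 and 2772 in siKLF7 against 1875 and 3324 in control arrays, with a difference of 0.31 with 4 arrays, -0.10 against scramble control 2 and 0.72 against scramble control 1. COX6B2 thus lay below both controls in siKLF7 cells while the groups overlapped for COX6B1.

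COX8C, also known from testis, stood at 48.4 and 72.8 in siKLF7 and 98.9 and 78.6 in control arrays, differing by -0.46 with 4 arrays, -0.32 against scramble control 2 and -0.60 against scramble control 1. It was dim, and its siKLF7 arrays lay 0.46 apart on the log2 scale, as far as the groups did. Its partner COX8A stood at 3738 and 2845 in siKLF7 against 2399 and 3934 in control arrays, and differed by 0.09 with 4 arrays, -0.27 against scramble control 2 and 0.44 against scramble control 1. COX7B2, a further testis isoform, stood at 46.6 and 54.9 in siKLF7 against 46.1 and 52.3 in control arrays, and its partner COX7B at 409 and 362 in siKLF7 against 193 and 367 in control arrays. Their 4-array differences were 0.03 and 0.50, against scramble control 2 they were -0.04 and 0.07, and against scramble control 1 0.10 and 0.94.

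COX6A2, the heart and skeletal muscle isoform, stood at 249.8 and 264 in siKLF7 and 274 and 262 in control arrays, and its partner COX6A1 at 5888 and 6049 in siKLF7 against 4298 and 5406 in control arrays. The difference was -0.06 for COX6A2 and 0.31 for COX6A1 with 4 arrays, -0.03 and 0.14 against scramble control 2, and -0.09 and 0.47 against scramble control 1. COX7A1, likewise of heart and skeletal muscle, stood at 174 and 181 in siKLF7 against 144 and 190.2 in control arrays, differing by 0.09 with 4 arrays, -0.10 against scramble control 2 and 0.27 against scramble control 1. Its partner COX7A2 stood at 1681 and 1529.8 in siKLF7 against 1219 and 1357 in control arrays, differing by 0.31 with 4 arrays, 0.24 against scramble control 2 and 0.39 against scramble control 1. COX6A1 and COX7A2 had both siKLF7 arrays above both controls, and the groups overlapped for the muscle isoforms. The summed signal of 5 striated muscle markers was 2100.1 and 2225 in the siKLF7 arrays, against 2443 and 2456 in scramble controls 1 and 2, and its part in these values was not tested. COX4I2, an isoform known from lung, and its widely expressed partner COX4I1 have symbols that do not match the rule. COX4I2 stood at 69.3 and 80.9 in siKLF7 against 90 and 84.8 in control arrays, and COX4I1 at 2841 and 2757 in siKLF7 against 2355 and 2739.9 in control arrays. They differed by -0.18 and 0.14 with 4 arrays, and neither passed in any of the 3 fits.

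**Figure D4:**
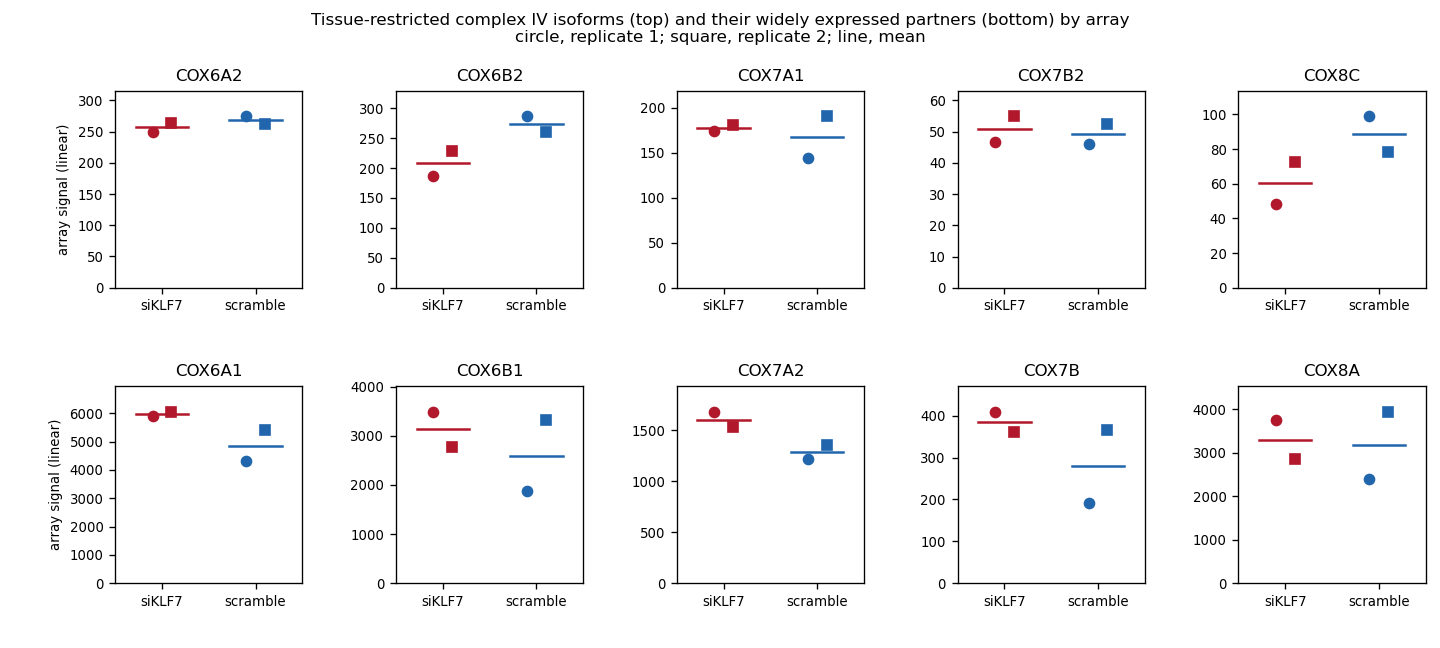
Signal on a linear scale in each array for 5 tissue-restricted complex IV isoforms (top row) and the widely expressed partner of each (bottom row), siKLF7 left and scramble control right, with replicate 1 as a circle, replicate 2 as a square and the mean as a line. The siKLF7 points lie below both control points for COX6B2 and COX8C and above both for COX6A1 and COX7A2.

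In complex V, the differences of ATP5MC1 and ATP5PB depended on the control used. ATP5MC1, one of the genes for the c subunit that forms the rotating membrane ring, had signals of 5490.3 and 5199 in the siKLF7 arrays, against 5560.5 and 6717 in scramble controls 1 and 2. It fell by 0.33 against scramble control 2 (SE 0.08, limma adjusted p = 0.0111), to 79.6% of that level. Against scramble control 1 the difference was -0.06 (SE 0.08, limma adjusted p = 0.648), and with 4 arrays -0.19 (limma adjusted p = 0.639). The fall was lost without an intensity trend in the variance prior (limma adjusted p = 0.422). ATP5MC2 and ATP5MC3, whose products mature to the same protein, did not fall in any of the 3 fits. ATP5MC2 stood at 3534 and 3824 in siKLF7 against 2808 and 3591 in control arrays, differing by 0.21 with 4 arrays, 0.03 against scramble control 2 and 0.39 against scramble control 1, and ATP5MC3 stood at 1149 and 1181 in siKLF7 against 1157 and 1136 in control arrays, differing by 0.02 with 4 arrays, 0.04 against scramble control 2 and 0.01 against scramble control 1. ATP5MC2 rose against scramble control 1 (limma adjusted p = 0.00141).

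ATP5PB encodes subunit b of the peripheral stalk, which holds the catalytic head still. Its signals were 1867 and 1864 in the siKLF7 arrays, against 1914 and 2511 in scramble controls 1 and 2, so that scramble control 1 lay close to the siKLF7 arrays. It fell by 0.43 against scramble control 2 (SE 0.12, limma adjusted p = 0.0471), to 74.5% of that level, and the difference was -0.04 against scramble control 1 and -0.23 with 4 arrays. That call lay close to the threshold and was lost with a pseudocount of 1 (limma adjusted p = 0.0519), with the mean of a gene's probe sets (limma adjusted p = 0.055) and without the intensity trend (limma adjusted p = 0.253). The other stalk subunits did not fall in any of the 3 fits. ATP5PD stood at 3165 and 2944 in siKLF7 against 2160.1 and 2947 in control arrays, differing by 0.27 with 4 arrays, 0.05 against scramble control 2 and 0.50 against scramble control 1. ATP5PO stood at 2958 and 3370.4 in siKLF7 against 2843 and 2811 in control arrays, differing by 0.16 with 4 arrays, 0.17 against scramble control 2 and 0.15 against scramble control 1. ATP5PF stood at 815 and 827 in siKLF7 against 547 and 758 in control arrays, differing by 0.34 with 4 arrays, 0.11 against scramble control 2 and 0.57 against scramble control 1. Both ATP5PD and ATP5PF rose against scramble control 1 (limma adjusted p = 1.4e-04 and 0.00278).

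**Figure D5:**
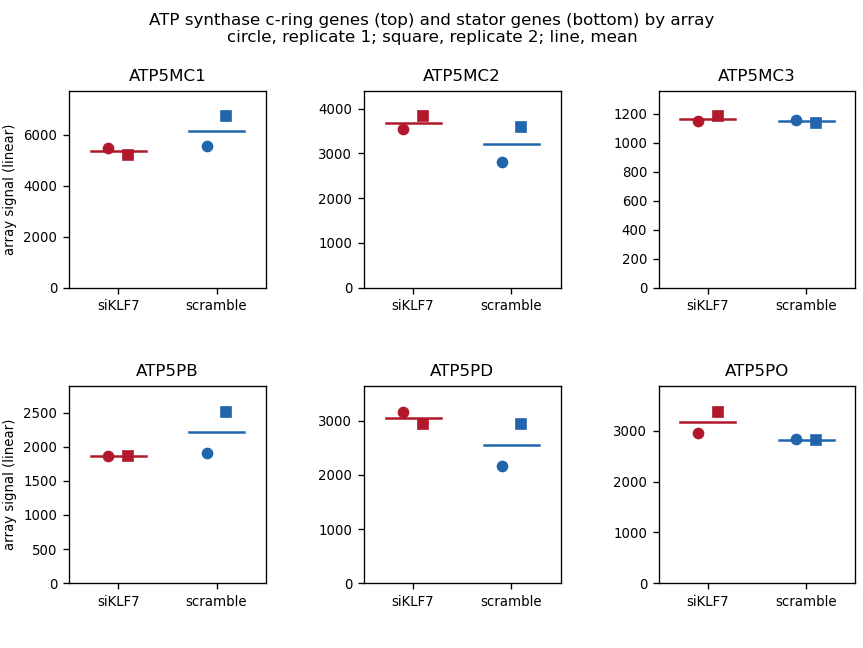
Signal on a linear scale in each array for the 3 c subunit genes (top row) and 3 peripheral stalk genes (bottom row), siKLF7 left and scramble control right, with replicate 1 as a circle, replicate 2 as a square and the mean as a line. For ATP5MC1 and ATP5PB the siKLF7 points lie below both controls, close to replicate 1 and further from replicate 2, with ATP5PB at 1867 and 1864 in siKLF7 and 1914 and 2511 in control arrays.

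In the catalytic head, ATP5F1B, the subunit that makes ATP, had signals of 6391 and 6498 in the siKLF7 arrays, against 6166 and 6354 in scramble controls 1 and 2, a log2 difference of 0.04. ATP5F1C, the central shaft, stood at 1956 and 1778 in siKLF7 against 2466 and 2060.4 in control arrays. Both siKLF7 values of ATP5F1C lay below both controls, with differences of -0.27 with 4 arrays and -0.14 against scramble control 2 that did not pass, and it fell against scramble control 1 (limma adjusted p = 0.00727). ATP5F1D, a part of the central stalk, stood at 1695 and 1258 in siKLF7 against 937 and 1829.8 in control arrays, and its sign turned with the control, -0.32 against scramble control 2 and 0.63 against scramble control 1. The pseudogene ATP5F1EP2, whose probes may also read ATP5F1E, stood at 2469 and 2315 in siKLF7 against 1926 and 2207 in control arrays. Over the 18 members of complex V the median difference was 0.16 with 4 arrays and 0.03 against scramble control 2. Against scramble control 1 the difference was above 0 for 14 of 18, 77.8%, where 43.1% of all genes were.

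Other genes of the pathway were taken from lists written with earlier results of these data known. Among them is NDUFAF3, an assembly factor of complex I. Of 40 factors that assemble the complexes, 0 passed with 4 arrays, where 0% of all genes passed. Their difference was above 0 for 27 against scramble control 2, 67.5%, and for 31 against scramble control 1, 77.5%. The shares over all genes were 42.2% and 43.1%. NDUFAF3 had signals of 1874 and 1877 in the siKLF7 arrays, against 2502 and 3096 in scramble controls 1 and 2. Both siKLF7 values lay below both controls. NDUFAF3 fell by 0.72 against scramble control 2 (SE 0.12, limma adjusted p = 1.9e-05) and by 0.41 against scramble control 1 (SE 0.12, limma adjusted p = 0.00498), and the 4-array difference of -0.57 did not pass (limma adjusted p = 0.639). The median over the 40 factors was 0.12 with 4 arrays, 0.05 against scramble control 2 and 0.18 against scramble control 1. ATPAF2, a chaperone of the ATP synthase head, stood at 767 and 770.3 in siKLF7 against 538 and 585 in control arrays, differing by 0.44 with 4 arrays, 0.39 against scramble control 2 and 0.50 against scramble control 1, where it rose (limma adjusted p = 0.0104).

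Of 12 regulators of mitochondrial gene expression, 0 passed with 4 arrays, where 0% of all genes passed. Against scramble control 1 the difference was above 0 for 9 of them, 75%, where 43.1% of all genes were. The medians of the 12 were 0.13 with 4 arrays, 0.10 against scramble control 2 and 0.13 against scramble control 1. TFAM, which packages and transcribes mitochondrial DNA, had signals of 528 and 494 in the siKLF7 arrays, against 304 and 366 in scramble controls 1 and 2. Its differences were 0.59 with 4 arrays (SE 0.15, limma adjusted p = 0.639) and 0.46 against scramble control 2 (SE 0.16, limma adjusted p = 0.165), and it rose by 0.72 against scramble control 1 (SE 0.16, limma adjusted p = 2.7e-04). GABPA, the DNA-binding part of GABP, stood at 707 and 518 in siKLF7 against 257 and 514 in control arrays, differing by 0.71 with 4 arrays, 0.23 against scramble control 2 and 1.19 against scramble control 1 (limma adjusted p = 7.3e-09). Both genes lay above both controls, GABPA with scramble control 1 far below the rest.

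Of 11 TCA cycle enzymes, 0 passed with 4 arrays, where 0% of all genes passed, and their median difference was -0.02. Against scramble controls 2 and 1 their medians were 0.02 and 0.05, where those of all genes were -0.04 and -0.05. SUCLA2, a subunit of succinyl-CoA ligase, stood at 1289 and 1178 in siKLF7 and 678 and 1138 in control arrays, differing by 0.48 with 4 arrays, 0.11 against scramble control 2 and 0.85 against scramble control 1 (limma adjusted p = 1.8e-06). OGDH, of the 2-oxoglutarate dehydrogenase complex, stood at 1747 and 1708 in siKLF7 against 2045 and 1821 in control arrays, differing by -0.16 with 4 arrays, -0.08 against scramble control 2 and -0.24 against scramble control 1. Of 9 respiratory chain genes whose symbols do not match the rule, 0 passed with 4 arrays, where 0% of all genes passed. Their medians were 0.23 with 4 arrays and 0.07 against scramble control 2. Against scramble control 1 their median was 0.37, and the difference was above 0 for 8 of 9, where 43.1% of all genes were. COXFA4, a subunit of complex IV long named NDUFA4, stood at 797 and 758 in siKLF7 against 516 and 588 in control arrays, differing by 0.49 with 4 arrays, 0.39 against scramble control 2 and 0.58 against scramble control 1. COX7A2L, which takes part in respiratory supercomplexes, stood at 2090.4 and 2344 in siKLF7 against 1413 and 2038 in control arrays, differing by 0.38 with 4 arrays, 0.12 against scramble control 2 and 0.64 against scramble control 1. Both lay above both controls, and both rose against scramble control 1 (limma adjusted p = 0.00277 for COXFA4 and 1.6e-05 for COX7A2L).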

How the data were processed

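The deposited values are linear array intensity, made by the authors with PLIER 2.0 in Affymetrix Expression Console 1.1.1, per the submitters' processing notes. Whether arrays were normalized to each other, and the genome build, are not given in the sources used here. Of 33297 features, 19460 had 1 gene symbol in the platform annotation, 1754 had several and 12083 had none. Features with 1 symbol gave 18417 genes, taking the brightest of several features. On the log2 scale the median of the members was 10.06 to 10.52 per array, against 8.22 to 8.28 for all genes. Comparisons with all genes were not matched for brightness, and its part in the differences was not tested.

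Values were analysed as log2(signal + 16), with no filter, in limma 3.58.1 (R 4.3.3), with an intensity trend and Benjamini-Hochberg adjustment over all genes at 0.05. The fit of 4 arrays had 2 residual and 2.63 prior degrees of freedom. The fits against scramble control 2 and 1 alone each had 1 residual and 74.2 and 86.2 prior degrees of freedom, and assume that the lone control varies like the siKLF7 pair. With 2 arrays per group, their number limits the precision. The fits were run on simulated data in which all arrays had the same spread for a given gene. That setting cannot show how the fits act where 1 control array stands apart. Figures were drawn with matplotlib 3.10.9.

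The members and lists were chosen with earlier results of these data known. Values in every array are given for members that passed with 4 arrays or against scramble control 2, for the lowest p-values of each complex, for the isoform pairs, and for genes singled out after their values were seen (the other complex I core, c ring and stalk subunits, NDUFA11, NDUFB3, NDUFS4, NDUFS6, NDUFV3, UQCRC1, COX5B, ATP5F1B and ATP5F1D). Replicate numbers were not taken as pairs. Deviations of same-numbered arrays correlated at -0.04 across all genes and at -0.51 across the members. Alternatives were other scalings (median centring, quantile), filters on dim genes (25% or 50%), other pseudocounts (1 or 32), averaged features, other variance priors (robust, no trend), a threshold of 0.1, a replicate block, each array left out and, chosen after seeing the data, a fit over all features. Promoter windows came from RefSeq on GRCh38.p14, and 63 members matched. Protein sequences were not used here.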

Additional observations from a re-analysis of the deposited data

How the results depend on the processing

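The share of members called followed the control array used. Leaving out 1 array at a time, the 4-array count ranged from 0 to 4935 for all genes (290 without scramble control 1, 4935 without scramble control 2) and from 0 to 46 for members (3 and 46), and the member median from 0.053 to 0.36. Against scramble control 2, quantile normalization gave 479 genes and no intensity trend gave 172, with 1 member called, while the fit over all features, chosen after seeing the data, called 0 members. Of the genes called there, 56.2% rose, against 65.3% with median centring, and 0 members rose and 3 fell with either. The NDUFV2 difference from scramble control 2 ranged from -0.73 to -0.66 over 10 alternatives of scaling, filter, pseudocount, prior, feature mean and threshold. The looser threshold is no separate trial, since it leaves the difference as it is. In the fit over all features the difference was -0.70 for the probe set used, and NDUFV2 did not pass.

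Signs of small differences turned. Leaving out 1 array at a time, the 4-array difference ranged from -0.096 to 0.72 for COX6B1, from -0.096 to 0.27 for COX7A1, from -0.058 to 0.12 for COX7B2, from -0.27 to 0.44 for COX8A, from -0.082 to 0.74 for SDHD, from -0.13 to 0.23 for UQCR10 and from -0.0078 to 0.45 for NDUFS7. Against scramble control 2, quantile normalization gave 0.017 for COX6A2, 0.043 for COX7B2 and -0.013 for SDHC, median centring 0.0079 for COX6A2, the mean of features 0.0038 for SDHD and the fit over all features 0.089 for SDHD. Against scramble control 1, NDUFS7 stood at -0.0071 with quantile normalization and -0.019 with median centring. The cause was not tested in these cases.

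With the replicate block, 0 genes and 0 members passed, the member median was 0.19, and NDUFV2 stood at -0.72 (limma adjusted p = 0.735). Symbols updated through gene IDs and those of the platform gave the same 77 members. The lone control of each 3-array fit has no spread of its own, and a member that did not pass is not shown to be unaltered. Dim members such as COX8C and COX7B2 lie nearest the pseudocount of 16, which shrinks their differences.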

Other observations

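Some subunits lay only on features that list several genes, so their values cannot be assigned to 1 gene. The feature that lists NDUFS5, an accessory subunit of complex I, had signals of 4293 and 4222 in the siKLF7 arrays, against 3147 and 3699 in scramble controls 1 and 2. The feature shared by UQCRH and UQCRHL stood at 795 and 733 in siKLF7 and 460 and 607 in control arrays, and all siKLF7 values lay above both controls, as they did on the single-gene feature of UQCRH. NDUFC2, a membrane-arm subunit of complex I, stood at 4348 and 4011 in siKLF7 against 3654 and 4092 in control arrays, and ATP5F1E, the epsilon subunit of the ATP synthase, at 1633 and 1602 in siKLF7 against 1407 and 1442 in control arrays. None of these features passed in limma with 4 arrays, where 0 of all 33297 features did, so that result is not particular to them.

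COXFA4L2, which resembles COXFA4 and is known as a gene induced by low oxygen, had signals of 986 and 1113 in the siKLF7 arrays, against 7.59 and 1117 in scramble controls 1 and 2. The low value in scramble control 1 stood alone, and against scramble control 2 the log2 difference was -0.09 (limma adjusted p = 0.838).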
